A study of Mus musculus with 6 samples.

Results

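The genes examined here encode the replication-dependent core histones, the H2A, H2B, H3 and H4 proteins that package newly copied DNA. A gene was included where a probe set of the array named it alone and its symbol began with H2ac, H2bc, H3c or H4c followed by a number, the current form of the older Hist1h to Hist4h names. This gave 22 genes among 19938 tested, namely 4 H2A, 9 H2B, 3 H3 and 6 H4 genes, each with 1 such probe set. They are a minority of the family: the RefSeq table lists 58 core histone genes with such names, of which 35 were named on this array only in probe sets that name several genes.

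The cells were mouse induced pluripotent stem cells (iPSCs), which are fibroblasts reprogrammed to an embryonic state, and total RNA of 6 cultures was hybridised to Affymetrix mouse gene arrays. The 3 naive cultures grew in DMEM with 15% fetal bovine serum, non-essential amino acids, glutamine, pyruvate, 55 uM beta-mercaptoethanol and leukaemia inhibitory factor (ESGRO LIF) at 1000 U/ml. The 3 primed cultures grew in medium conditioned by mouse embryonic fibroblasts with basic FGF at 8 ng/ml, on feeder cells or Matrigel. By their titles the naive lines came from embryonic and the primed lines from adult dermal fibroblasts, whereas the source field names embryonic fibroblasts for all 6. If the titles are right, the effect of culture and that of the parent cells cannot be told apart. The sources used here give no strain, passage or number of clones. The stated aim was to set these lines beside published naive and primed cells. Here the study's own naive and primed cultures are compared, by histone type.

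Replication-dependent histone genes lie in clusters, have no introns, and are transcribed mainly in S phase, when the cell doubles its chromatin. Their mRNAs usually end in a stem-loop that is bound by SLBP instead of a poly(A) tail, and they are degraded when replication stops. Many gene copies encode the same or nearly the same protein of each type, and pluripotent cells, which spend much of a short cycle in S phase, make large amounts of these mRNAs. Some copies, H2bc4 (formerly Hist1h2bc) and H2bc21 (Hist2h2be) among them, are known also to give polyadenylated transcripts outside S phase.

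Most core histone genes differed little between the states. Of the 22, primed cells had more of 3 and naive cells more of 4, and 15 did not pass the test (limma, adjusted p under 0.05). That is 31.8% past the threshold, against 44.5% of all genes tested (21.8% with more in primed and 22.7% with more in naive cells). The 3 arrays of each group did not overlap for 9 of the 22 genes, against 52.9% of all genes. The median difference was -0.051 on the log2 scale (all differences are primed minus naive), with a median of 0.00 over all genes. The histone median was -0.12 with median centring, -0.011 with quantile normalization and -0.015 without naive replicate 3. Under the same settings the median over all genes was -0.072, -0.0013 and -0.0039. Of the histone genes past the threshold, 0 differed 2-fold or more, a size for which the share over all genes was not counted. A difference over 0.5 was found for 1 of the 22 genes, against 13.9% of all genes. For the 15 genes that did not pass, the 95% intervals of the difference lay within -0.37 and 0.25. When each array was centred on its median, 2 histone genes were higher in primed and 7 in naive cells, and 35.2% of all calls were higher in primed cells against 49.0% without centring. In bulk RNA, fewer cells in S phase and less histone mRNA per cell cannot be told apart.

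**Figure D1:**
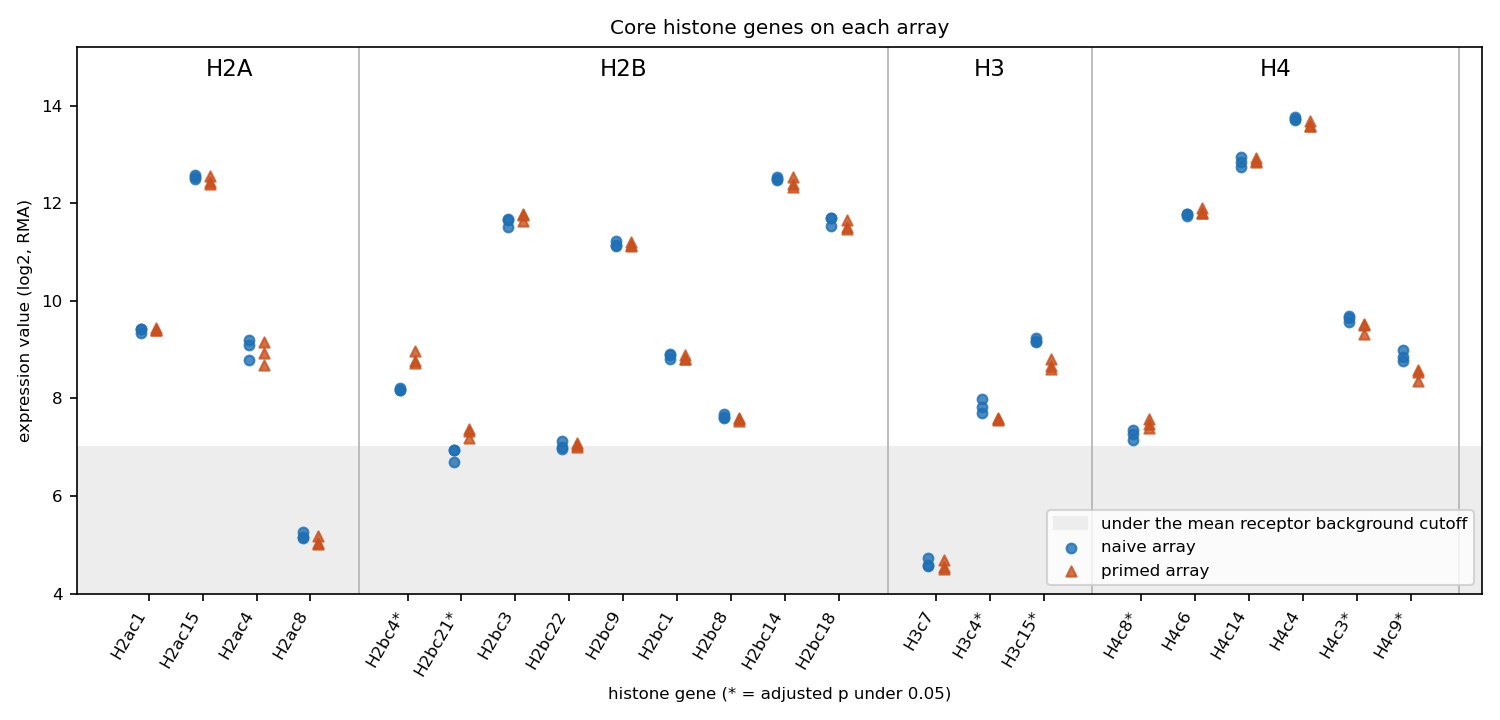
Expression value (log2, RMA) of the 22 core histone genes on each array, grouped by histone type, with naive arrays as circles and primed arrays as triangles; grey marks values under the mean background cutoff. For most genes the groups overlap or nearly touch, while the primed arrays of H2bc4 and H2bc21 sit above and those of H3c15 and H4c9 below the naive arrays.

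**Figure D2:**
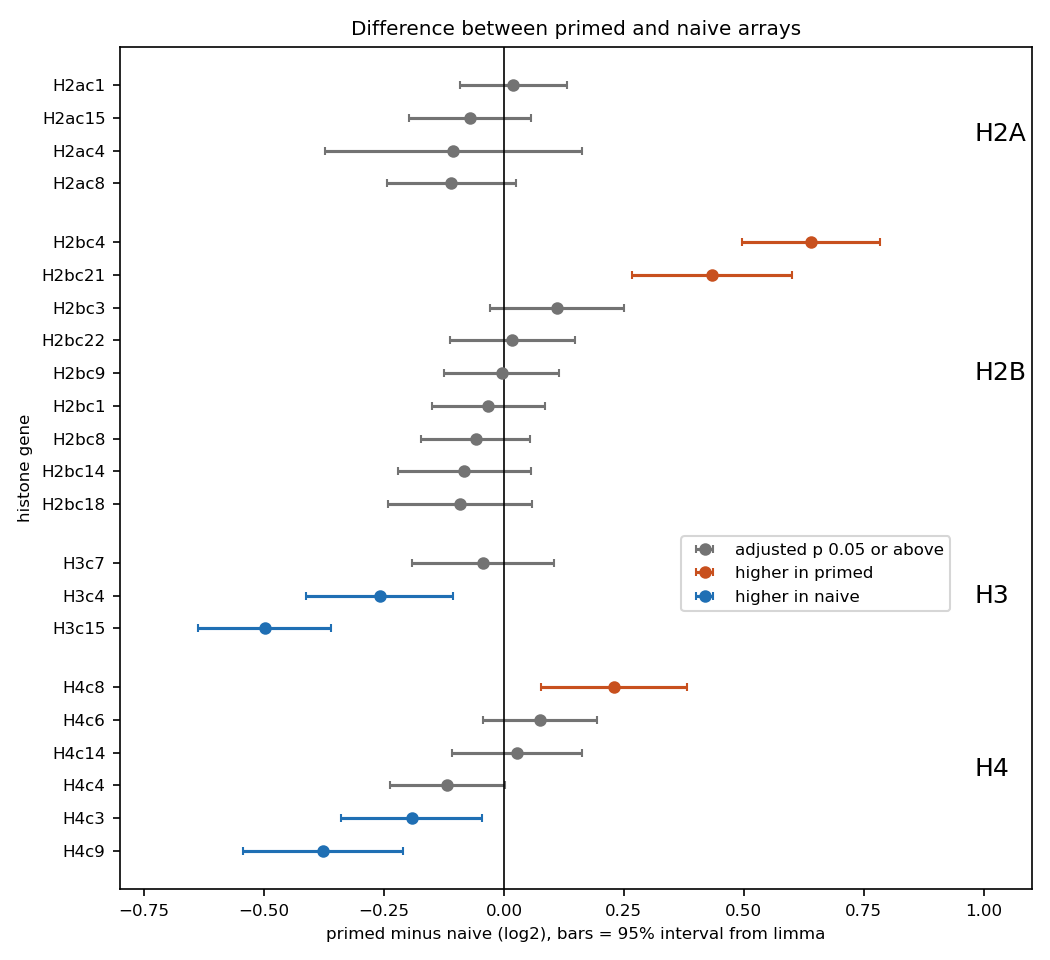
Difference between primed and naive arrays (log2) of each core histone gene with its 95% interval from limma (n = 3 arrays per group). H2bc4, at 0.64, and H3c15, at -0.50, mark the ends of the range.

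H2A genes showed no difference past the threshold, 0 of 4 in either direction, where 44.5% of all genes passed. Their differences ran from -0.11 to 0.02 with a median of -0.088. H2ac15 (Hist1h2ak), a copy of the canonical H2A in the larger cluster, had values of 12.50, 12.53 and 12.57 on the naive and 12.56, 12.43 and 12.40 on the primed arrays. Its groups overlapped. H2ac4 (Hist1h2ab) was the least even gene between replicates, with 9.09, 8.79 and 9.20 on naive and 9.15, 8.94 and 8.68 on primed arrays. H2ac1, which encodes a testis form of H2A, differed by 0.02 (95% interval -0.09 to 0.13). H2ac8 lay within background on all 6 arrays, at 5.02 to 5.27, so that its difference of -0.11 cannot be read as a level of expression.

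Among H2B genes, 2 of 9 rose in primed cells and 0 fell, a share of rises near the 21.8% of all genes. H2bc4 had values of 8.20, 8.18 and 8.17 on the naive and 8.97, 8.73 and 8.77 on the primed arrays. The naive arrays lay close together and every primed array was above them. The rise was 0.64 (SE 0.07, adjusted p = 1.0e-05), or 1.56-fold, which made H2bc4 the histone gene with the largest difference in either direction. H2bc21, in the smaller cluster on chromosome 3, had values of 6.94, 6.70 and 6.94 on the naive and 7.37, 7.33 and 7.19 on the primed arrays. Its naive arrays were all within background and its primed arrays all above it. The rise of 0.43 (SE 0.08, adjusted p = 0.00059) is therefore compressed on the naive side. Both rises passed without each array in turn. H2bc4 also passed under every other alternative that was run, while H2bc21 is under 0.5 and was removed by the filter on mean expression.

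The other 7 H2B genes did not pass, with differences from -0.09 (H2bc18) to 0.11 (H2bc3). H2bc14 (Hist1h2bm), the H2B gene with the highest signal, had values of 12.49, 12.46 and 12.54 on the naive and 12.54, 12.32 and 12.39 on the primed arrays, and its groups overlapped. H2bc9 (Hist1h2bh) differed by -0.0050 (adjusted p = 0.96). H2bc1, for the testis form of H2B, had a naive mean of 8.87 ± 0.05 and a primed mean of 8.84 ± 0.04 (SD, n = 3). H2bc22 was near background, above it on 1 naive and 3 primed arrays. The median of the 9 H2B genes was -0.0050, and 0.011 after quantile normalization.

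Of the 3 H3 genes, 2 fell in primed cells and 0 rose, where 22.7% of all genes fell and 21.8% rose. H3c15 (Hist2h3c2), a chromosome 3 copy, had values of 9.16, 9.17 and 9.23 on the naive and 8.81, 8.66 and 8.60 on the primed arrays. Every primed array was below every naive array, and the difference was -0.50 (SE 0.06, adjusted p = 5.1e-05). H3c4 (Hist1h3d), in the chromosome 13 cluster, had values of 7.83, 7.70 and 7.98 on the naive and 7.60, 7.58 and 7.56 on the primed arrays. These groups were separate too, and the difference was -0.26 (SE 0.07, adjusted p = 0.0095). H3c7 (Hist1h3f) lay within background on all arrays, at 4.51 to 4.74. Under the scaling as deposited no H3 gene differed by more than 0.5, a size that 13.9% of all genes exceeded, but H3c15 differed by -0.57 with median centring and by -0.56 with quantile normalization.

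The promoters of both H3 genes that were lower in primed cells are shown because their letters differ in kind, although both genes fell. The sequences are the 100 bases before the gene start from RefSeq (GRCm38.p6), 5′ to 3′ on the gene's strand, H3c4 at chr13:23575663-23575762 (plus) and H3c15 at chr3:96239128-96239227 (minus). Capitals mark CCAAT or TATAAA on either strand.
H3c4: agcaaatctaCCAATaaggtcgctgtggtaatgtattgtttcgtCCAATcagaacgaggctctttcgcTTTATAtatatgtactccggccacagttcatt
H3c15: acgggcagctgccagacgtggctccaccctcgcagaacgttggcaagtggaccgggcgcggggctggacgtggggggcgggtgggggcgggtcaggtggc
In H3c4 the nearest TATAAA match starts 32 bases before the gene start (position -32) and CCAAT matches start at -90 and -56. The H3c15 stretch holds neither motif, and its nearest CCAAT match lies at position 15 after the annotated start.

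Of the 6 H4 genes, 1 rose in primed cells, 2 fell and 3 did not pass, where 21.8% of all genes rose and 22.7% fell. H4c9 (Hist1h4i) had values of 8.85, 8.77 and 8.998 on the naive and 8.59, 8.36 and 8.54 on the primed arrays. The groups did not overlap, and the difference was -0.38 (SE 0.08, adjusted p = 0.0015). H4c8 (Hist1h4h), the next measured histone gene along chromosome 13, had values of 7.26, 7.36 and 7.15 on the naive and 7.58, 7.39 and 7.48 on the primed arrays. It rose by 0.23 (SE 0.07, adjusted p = 0.018), and its highest naive and lowest primed arrays were close. H4c3 (Hist1h4c) had values of 9.65, 9.56 and 9.70 on the naive and 9.32, 9.52 and 9.50 on the primed arrays, a difference of -0.19 (SE 0.07, adjusted p = 0.035).

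The calls of H4c3 and H4c8 rested on single arrays. H4c3 no longer passed without naive replicate 1 (adjusted p = 0.080), naive replicate 3 (0.12) or primed replicate 1 (0.12). H4c8 no longer passed without naive replicate 3 (0.081), without primed replicate 1 (0.071) or with median centring (0.077). H4c4 (Hist1h4d), at 13.77, 13.70 and 13.73 on naive and 13.69, 13.58 and 13.58 on primed arrays, did not pass (-0.12, adjusted p = 0.11). It did pass without primed replicate 1 (adjusted p = 0.039), with array weights (0.039), with an intensity trend (0.011) and with median centring (0.0099). With quantile normalization the difference of H4c4 was only -0.016 (limma, adjusted p = 0.82). H4c6 (0.07) and H4c14 (0.03) did not pass. The median of the 6 H4 genes was -0.045, and 0.055 after quantile normalization.

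H4 promoters are shown because these 5 genes, with calls in both directions, share a motif. Again these are the 100 bases before the start from RefSeq (GRCm38.p6), with GGTCCG in capitals; this is the core of the H4 promoter site that the factor HINFP is known to bind. H4c3 is at chr13:23698459-23698558 (minus), H4c4 at chr13:23581468-23581567 (plus), H4c6 at chr13:23551669-23551768 (minus), H4c8 at chr13:23530944-23531043 (plus) and H4c9 at chr13:22041363-22041462 (minus).
H4c3: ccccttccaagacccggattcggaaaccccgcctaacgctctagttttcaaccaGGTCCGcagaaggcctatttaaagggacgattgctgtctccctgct
H4c9: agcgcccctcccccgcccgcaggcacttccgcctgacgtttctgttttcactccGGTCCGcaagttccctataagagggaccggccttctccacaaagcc
H4c4: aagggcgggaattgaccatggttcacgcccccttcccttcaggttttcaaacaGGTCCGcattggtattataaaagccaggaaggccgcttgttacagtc
H4c6: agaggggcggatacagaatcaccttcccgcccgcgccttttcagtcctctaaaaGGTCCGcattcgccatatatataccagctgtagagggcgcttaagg
H4c8: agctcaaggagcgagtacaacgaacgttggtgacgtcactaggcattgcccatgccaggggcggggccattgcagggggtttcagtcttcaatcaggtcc
The match starts at -46 in H4c3, H4c6 and H4c9 and at -47 in H4c4. In H4c8 it starts at -5 and runs across the annotated start, so the printed stretch ends inside it. The motif was present for genes that fell, rose and did not pass.

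In the whole 300-base windows of the table (250 bases before and 50 after the start), GGTCCG on either strand was found in 5 of 5 H4, 1 of 7 H2B, 0 of 4 H2A and 0 of 2 H3 promoters, and in 8.25% of all 32851 windows. The octamer ATTTGCAT, an Oct factor site typical of H2B promoters, was found in 5 of 7 H2B and 3 of 4 H2A promoters, against 1.74% of all windows. CCAAT was found in 7 of 7 H2B and 4 of 4 H2A promoters, against 37.4% of all windows, and TATAAA in 12 of the 18 histone promoters, against 13.6%. Both strands were searched, and matches of different motifs overlapped 0 times in the histone windows. A match is a description of letters and not a bound site. H2bc4, H2bc21, H3c7 and H4c14 had no entry in the promoter table. H2ac1 and H2bc1, like H2ac8 and H2bc8, are divergent neighbours whose windows overlap.

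Position in the clusters did not divide the genes by direction. Of the 18 genes on chromosome 13, 2 were higher in primed and 3 in naive cells. Of the other 714 genes there, 151 were higher in primed and 156 in naive cells. Of the 4 histone genes on chromosome 3, 1 was higher in each. Of the other 939 genes there, 217 were higher in primed and 248 in naive cells. In order along chromosome 13, H2bc4 (0.64) lay between H4c4 (-0.12) and H4c3 (-0.19) among the measured genes. On chromosome 3, H2bc21 (0.43) was followed by H3c15 (-0.50). Medians of the histone genes were -0.051 on chromosome 13 and -0.032 on chromosome 3, against 0.0037 and -0.0074 for the other genes there.

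More core histone probe sets on this array named several genes than named 1. A further 26 probe sets named several genes, all of them histones, and 18 of the 22 genes above were named in such sets as well. Of these 26, 1 was higher in naive cells and 25 did not pass, which is 3.85% past the threshold against 44.5% of all genes. All 26 had a difference below 0, with a median of -0.09, where 50.4% of all genes were below 0. These sets were not fitted under other scalings, so whether their sign depends on the scaling was not tested. The 10 sets for H3 genes had a median of -0.12, the 7 for H2B of -0.09, the 6 for H4 of -0.06 and the 2 for H2A of -0.05. These sets share genes, and there are 24 distinct profiles among the 26, so they are not independent. The set that passed named 2 H4 genes and differed by -0.54, with SDs of 0.42 (naive) and 0.27 (primed, n = 3 each) and with groups that overlapped. Because copies are nearly identical in sequence, a value assigned to 1 gene may also hold RNA of other copies. The sources used here do not say which probes are shared.

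**Figure D3:**
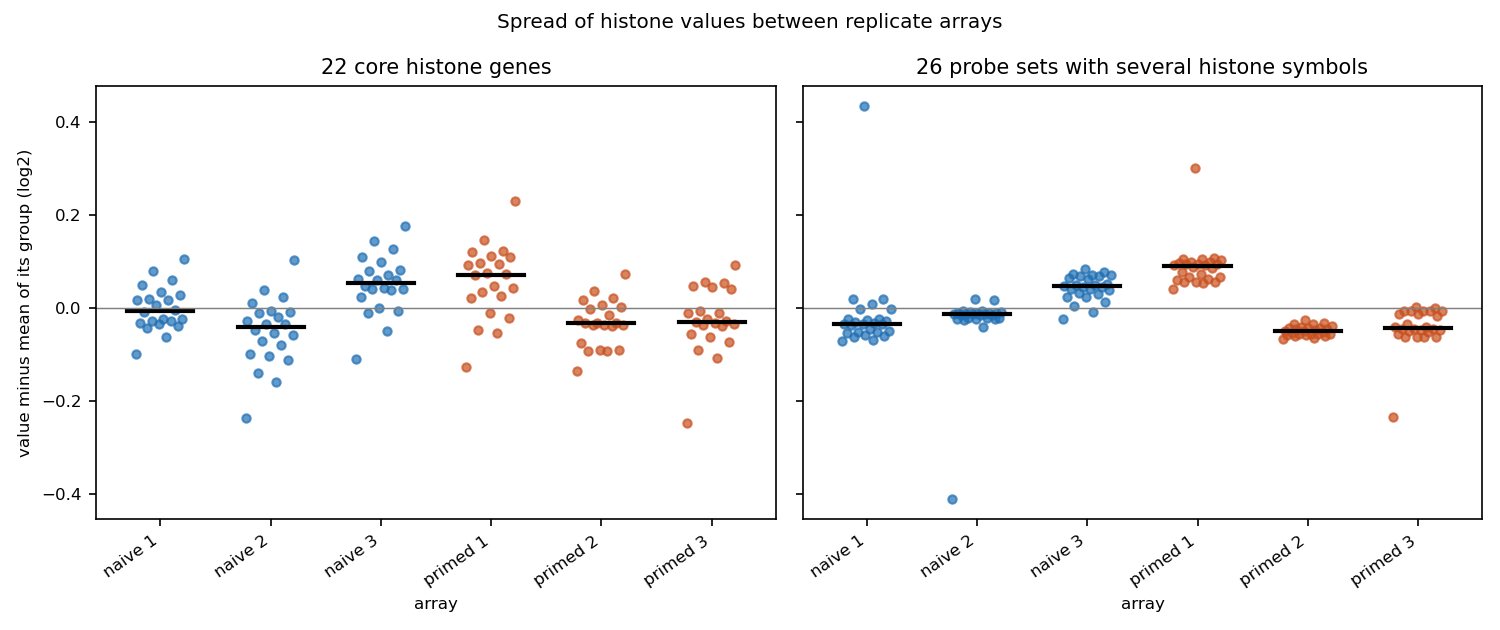
Value of each core histone gene (left) and of each probe set with several histone symbols (right) minus the mean of its group, by array (log2); bars are medians. Primed replicate 1 lies above the other primed arrays, with medians of 0.07 and 0.09, and naive replicate 3 above the other naive arrays, with medians of 0.05 and 0.05.

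Replicate arrays differed in histone signal by amounts near the size of the differences between states. Primed replicate 1 was the highest primed array for 16 of the 22 genes and for 26 of the 26 several-gene sets, and for 46.1% of all genes. Naive replicate 3 was the highest naive array for 16 of 22 genes and 23 of 26 sets, and for 29.5% of all genes. Without primed replicate 1, 2 histone genes were higher in primed and 4 in naive cells. Without naive replicate 3 these numbers were 2 and 3. H2bc4, H2bc21, H3c4, H3c15 and H4c9 passed in both cases. What sets these arrays apart was not tested.

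Linker H1 genes, formerly named Hist1h1, also lie on chromosome 13 but are outside the rule used here. H1 binds the DNA that enters and leaves the nucleosome. Of the 5 measured, 4 fell in primed cells and 0 rose, where 22.7% of all genes fell, and their median was -0.39. H1f2 (Hist1h1c), a somatic linker histone, had values of 10.03, 10.02 and 9.85 on the naive and 9.30, 9.21 and 9.20 on the primed arrays. The groups were well apart, with a difference of -0.73 (SE 0.06, adjusted p = 2.6e-06). H1f1 (Hist1h1a), at 12.13, 11.85 and 11.87 against 11.56, 11.46 and 11.40, differed by -0.48, and H1f5 (Hist1h1b), at 11.97, 11.98 and 11.90 against 11.59, 11.51 and 11.57, by -0.39. Neither gene's groups overlapped. H1f6, the testis linker gene, differed by -0.34, with primed arrays above background on 1 of 3. H1f3 did not pass (-0.09). Of the other 4 genes once named Hist, H2bu2 (0.26) and H2aw (0.21), both on chromosome 11, were higher in primed cells, while H2bu1-ps (0.12) and H4f16 (-0.08) did not pass. H2aw did not pass with median centring (adjusted p = 0.052).

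Histone variant genes outside these families were taken as a list of 12, germ line forms included. Of these, 4 rose in primed cells, where 21.8% of all genes rose, 1 fell, where 22.7% fell, and 7 did not pass. Macroh2a2, a variant with a large extra domain that is linked to silent chromatin, rose from 10.51 ± 0.03 to 11.47 ± 0.08 (SD, n = 3), a difference of 0.96. H1f10, a linker gene outside the clusters, rose by 0.81 and H2az2, a gene for H2A.Z, by 0.71. H2ax, whose product is phosphorylated at DNA breaks, fell by 0.28 on the log2 scale. H2az1 (-0.05) and Cenpa (0.10), for the centromeric H3, did not pass. H3f3a, for H3.3, was near background in its own probe set and rose by 0.19, a call lost with median centring (adjusted p = 0.090) and without naive replicate 2 (0.051) or primed replicate 2 (0.062).

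Of 28 genes of histone mRNA transcription and processing, 15 fell in primed cells, 3 rose and 10 did not pass, where 22.7% of all genes fell and 21.8% rose. Slbp, for the protein that binds the histone stem-loop, had values of 10.75, 10.79 and 10.84 on the naive and 10.03, 9.95 and 10.15 on the primed arrays. All primed arrays were lower, with a difference of -0.75 (SE 0.06, adjusted p = 1.7e-06). Casp8ap2 (FLASH, needed for cutting the 3′ end) differed by -0.58, Mif4gd (a partner of SLBP in translation) by -0.57 and Lsm1 (decay of mRNA) by -0.54. Npat, the cyclin E target that drives histone transcription, differed by -0.21. Lsm11, a part of the U7 particle, rose by 0.56. Median difference of the list was -0.20.

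Of 20 histone chaperones and deposition factors, 10 fell in primed cells, 2 rose and 8 did not pass, beside the same 22.7% and 21.8% of all genes. Rbbp7 (-0.76), Daxx (-0.70), which loads H3.3, and Asf1a (-0.51), which hands H3-H4 to both assembly pathways, were lower, and Ubn1 (0.68), of the HIRA complex, was higher. In the list of genes of G1/S and S phase, 11 of 25 were lower and 2 higher in primed cells, with 12 not passing, and the shares over all genes are again 22.7% and 21.8%. The cyclin E genes Ccne2 (-1.04) and Ccne1 (-0.57) and the replication licensing gene Cdc6 (-0.52) were lower, and E2f1 (0.53), a transcription factor of S phase entry, was higher. Of genes of G2 and mitosis, 4 of 15 were lower, near the 22.7% of all genes, led by Kif20a (-0.47) and Cdc20 (-0.25), and 2, Aurkb (0.18) and Ccnb2 (0.15), were higher. The other lower genes, Cdk1 (-0.20) and Plk1 (-0.19), did not pass after quantile normalization (limma, adjusted p = 0.12 and 0.17). Whether these genes and the histone genes moved for a shared reason was not tested.

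**Figure D4:**
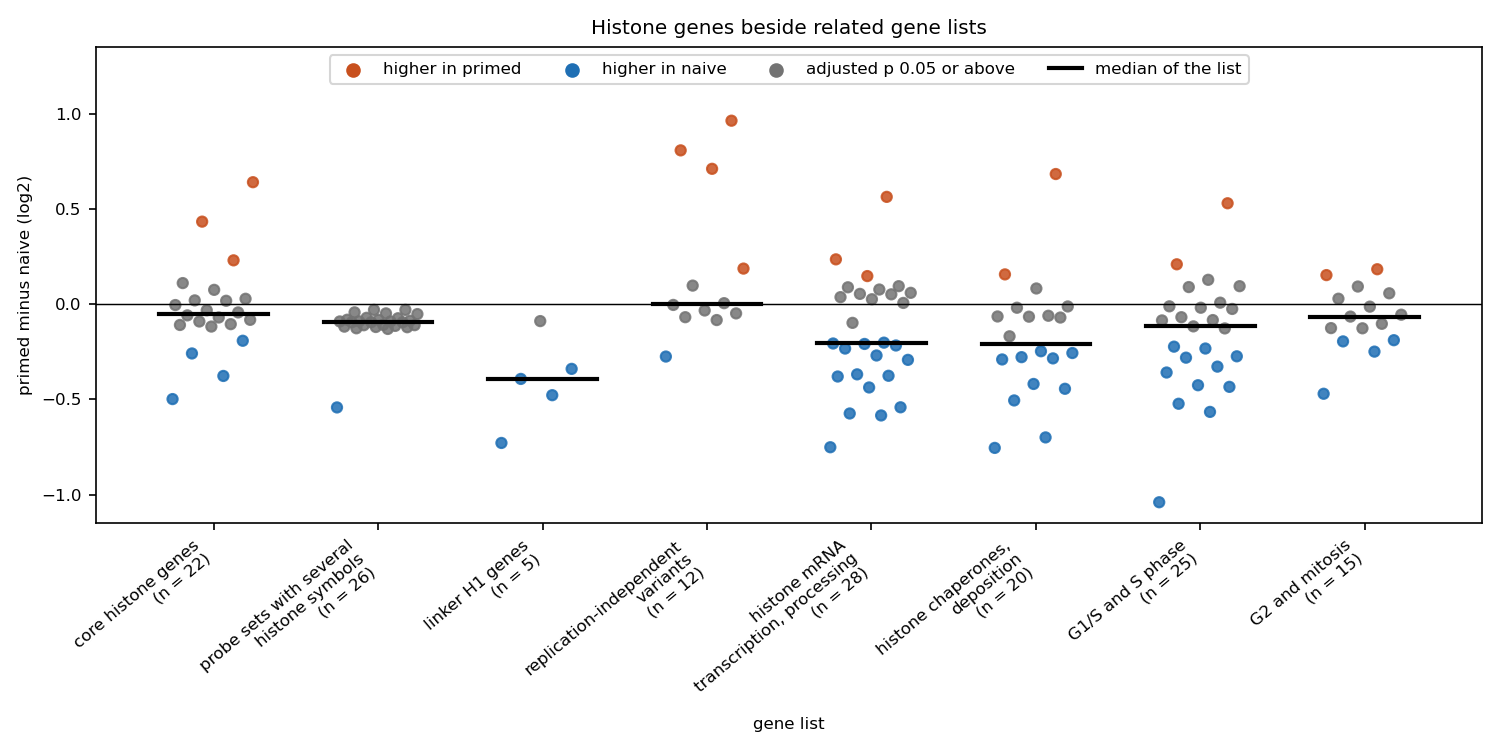
Difference between primed and naive arrays (log2) of each gene or probe set in the histone and related lists, coloured by the limma call, with the median of each list as a bar. Core histone genes centre near 0 with a median of -0.051, while the 5 linker H1 genes lie below 0 with a median of -0.39.

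The median signal of each primed array exceeded that of every naive array. Primed replicates 1, 2 and 3 had medians of 8.38, 8.35 and 8.35, and naive replicates 1, 2 and 3 had 8.29, 8.28 and 8.29. Centring each array on its median removes this offset of array medians, which the deposited scaling keeps. The median of the differences over all genes was -0.0015 as deposited and moved to -0.072 with centring. Background cutoffs lay between 6.96 and 7.02, and those of the groups overlapped. Of 9 markers of pluripotent cells, 8 were above background on all arrays and Zfp42 was in background on all. In primed cells 6 were lower and 0 higher, where 22.7% of all genes were lower and 21.8% higher. Pou5f1 was lower by 1.06 on the log2 scale. Of 19 fibroblast markers, which feeder cells or unreprogrammed cells could bring, 10 were lower and 2 higher in primed cells, beside the same shares. Naive arrays had a list mean of 8.57 to 8.60 and primed arrays one of 8.44 to 8.48. Among these markers Lum, Postn, S100a4 and Prrx1 were in background on all arrays. Dcn rose by 2.89, while the largest falls were those of Acta2 (-1.23), Tagln (-1.09) and Col1a1 (-0.76). Of 6 endoderm markers 1, Dab2, was lower in primed cells, again beside 22.7% of all genes. Their part in the histone values was not tested.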

How the data were processed

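Total RNA of 6 cultures was measured on 1 array each. The deposited values are log2 expression values, for which the submitters' processing notes name RMA, a background-corrected and normalized summary per probe set, and Partek 6.6. For the RMA options, the priming used in labelling and the genome build, the entry is: not given in the sources used here. Oligo-dT and random priming would read histone mRNAs without a poly(A) tail differently.

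Names of probe sets came from the platform annotation in GEO (21789 with 1 symbol, 1621 with several, 12146 not named here), and 21698 matched the RefSeq table (GRCm38.p6) by gene ID. The brightest probe set stood for each of 19938 genes. The test was limma 3.58.1 under R 4.3.3 (lmFit, eBayes, two-sided, Benjamini-Hochberg over all genes, threshold 0.05). A gene counted as background on an array when it lay under the 95th percentile of 1194 odorant and pheromone receptor genes. The fit was tested on simulated data with 200 changed genes. It recovered 14% of differences of 0.25, 88% of those of 0.5 and 100% of those of 1 and 2, and called 5 unchanged genes. In the data 44.5% of genes passed, so the adjusted threshold was stricter in the simulation. These shares therefore do not give the recovery in the data. The 95% intervals of the histone genes that did not pass lay within -0.37 and 0.25. Such a gene may thus still differ by an amount within its interval. Motifs were counted in Python 3.11.15.

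Histone genes past the threshold were all named, with values on every array; other genes were named as the 3 or 4 of a list with the largest differences, or from a set list. Members and lists were chosen with earlier results of these data known. What a biological replicate repeated is unstated, so a p-value reflects only how these 6 cultures vary, and 3 arrays per group limit the precision. Alternatives were scaling, filter, probe set rule, variance model, replicate block, thresholds, membership and leaving out each array.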

Additional observations from a re-analysis of the deposited data

How the results depend on the processing

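No histone gene past the threshold changed direction under the alternatives run, but medians by type did change sign: H4 with quantile normalization, and H2B, from -0.0050, with quantile normalization (0.011), without naive replicate 3 (0.030), without primed replicate 2 and with further genes once named Hist (0.017). Median centring gave 7 histone genes higher in naive cells, where 6325 of all 19938 genes were. Of these 7, 1 was an H2A and 1 an H2B gene, and 0 H4 genes were higher in primed cells. The H2A gene was H2ac8, which lay within background on all arrays. Medians with centring were -0.076 for H2B and -0.12 for H4, beside -0.072 over all genes. Quantile normalization gave 5 histone genes higher in primed cells, 2 of them H4, and an H4 median of 0.055. Of all genes, 4583 were then higher in primed and 4571 in naive cells. Dropping genes under the 40th percentile of mean level kept 16 histone genes and left 1 higher in primed cells, an H2B gene, with 0 H4 genes and medians of -0.38 for H3 and -0.12 for H4. At an adjusted p under 0.01, 0 H4 genes were higher in primed and 1 in naive cells, beside 3482 and 3540 of all genes. With a difference of at least 0.5 also required, 1 histone gene, of type H2B, was higher in primed cells and 0 in naive cells, with 0 for H3 and 0 for H4 in each direction; the count of all genes higher in primed was 1480 and of all genes higher in naive 1286. The H3 median was -0.38 without genes in background. With the several-gene probe sets the H2B and H3 medians were -0.083 and -0.12. With the 9 further genes once named Hist, added after the data were seen, 5 were higher in primed cells, 1 of them H2A, and 8 in naive cells, and the H4 median was -0.085. Without each array in turn, histone genes higher in primed numbered 2 to 3 and in naive 3 to 4; H4 genes higher in primed 0 to 1 and in naive 1 to 2, with an H4 median of -0.078 to -0.021. Leaving out linker genes changed nothing by construction. With the replicate block 3 histone genes were higher in primed and 4 in naive cells, as without it, and 4172 and 4344 of all genes. Arrays of the same number correlated at -0.11, 0.00 and -0.02 in their deviations. Pairs of different number lay between -0.09 and 0.10. These values do not tell what arrays of the same number share. The cause of these shifts was not tested.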
